A study of Mus musculus with 16 samples.

Results

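Peaks of histone H3 trimethylated at lysine 9 (H3K9me3) at the variable (V) gene segments of the antigen receptor loci were examined in small intestinal crypts of mice. A peak belonged to the set when the nearest gene within 5 kb in the deposited annotation was an immunoglobulin or T cell receptor V segment (symbols starting with Ighv, Igkv, Iglv, Trav, Trbv, Trgv or Trdv). This gave 760 of the 212313 H3K9me3 peaks, at 277 different segments. The immunoglobulin heavy chain locus (Igh, chromosome 12) held 293 of them and the kappa light chain locus (Igk, chromosome 6) held 389. The joined T cell receptor alpha and delta locus (Tra/Trd, chromosome 14) held 67, the T cell receptor beta locus (Trb, chromosome 6) held 11, and no peak was named for an Iglv or Trgv segment. For the dimethylated mark (H3K9me2), 181 of 47065 regions were listed in the deposited annotation with at least 1 such segment, of which 122 overlapped a V segment and 59 lay beside one, within 5 kb.

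The samples were whole crypt isolates from C57BL/6 males, which the study calls crypt epithelium. WT mice were compared with Smarcad1-KO mice (KO), in which the ATPase exons of Smarcad1, a chromatin remodeling factor of the SNF2 type, were floxed and excised by Cre expressed from the Villin promoter (Vil-cre), so that deletion was limited to cells that use this promoter. All KO mice came from 1 targeted line. Their ages and the Cre and loxP status of the WT mice are not given in the sources used here. Each mark had 3 WT and 3 KO ChIP-seq libraries, with 1 input per genotype that was sequenced without immunoprecipitation. The titles number the replicates without saying whether each came from a separate animal, so the p-values measure the spread between these libraries. V segment peaks held between 18572 and 31313 reads per H3K9me3 library, with a median of 17 to 28 reads per peak. In such bulk chromatin, fewer cells with the mark and less of the mark per cell cannot be told apart.

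V segments are the pieces from which developing lymphocytes assemble antigen receptor genes. In B and T cell precursors, the Rag1/Rag2 recombinase cuts next to a V segment and joins it to a diversity (D) or joining (J) segment. The cut is directed by a recombination signal sequence that directly follows the V segment and consists of a conserved heptamer, a spacer and a nonamer. Epithelial cells do not rearrange these loci and keep them in germline order. H3K9me3 and H3K9me2 are marks of repressed chromatin, and large clusters of tissue-restricted gene families are among the places where such chromatin is found.

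The bases that follow the V segments on their own strand were read from the GRCm38 genome and are shown for the segments next to 2 of the 3 peaks that changed in KO (Trav5-4 and Trbv28) and for the widest peaks and the peaks of smallest p in Igh (Ighv1-26, Ighv8-11) and Igk (Igkv4-90, Igkv4-77). Capitals mark the first 7 bases, the place of the heptamer. The run is 28 bases at Igk segments, where the spacer has 12 bases, and 39 bases at the others, where it has 23.
Ighv1-26, chr12:114788333-114788371, minus strand: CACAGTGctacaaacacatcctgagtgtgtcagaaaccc
Ighv8-11, chr12:115567110-115567148, minus strand: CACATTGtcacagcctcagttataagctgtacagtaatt
Igkv4-90, chr6:68807151-68807178, minus strand: CACAATGatacagactggaacaaaaacc
Igkv4-77, chr6:69110876-69110903, minus strand: CACAGTGatacagactggaacaaaaacc
Trav5-4, chr14:53704515-53704553, plus strand: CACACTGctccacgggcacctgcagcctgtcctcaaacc
Trbv28, chr6:41267151-41267189, plus strand: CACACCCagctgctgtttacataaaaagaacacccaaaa
The consensus heptamer CACAGTG, searched on the strand of the segment and starting at most 3 bases after its end, stood at 325 of the 518 V segments in the GENCODE M21 annotation (62.7%) and at 56 of 54886 other annotated genes (0.102%). It was present at 75.7% of segments annotated as genes and at 34.8% of those annotated as pseudogenes. An H3K9me3 peak overlapped 117 segments, of which 59.8% had this heptamer, against 63.6% of the 401 segments that no peak overlapped. The consensus nonamer ACAAAAACC within 60 bases after the segment was found at 52 segments, 39 of them in Igk, and at 76 of the other genes. It stood at 18.8% of the overlapped and 7.48% of the other V segments, and among segments annotated as genes at 25.4% and 9.06%. Igk, with the nonamer at 24.4% of its segments against 3.24% in Igh, also held 57 of the 117 overlapped segments.

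The middle 300 bases of each of the 3 peaks that were lower in KO are given next, on the plus strand of GRCm38. Capitals mark bases that the assembly does not mask as repeats. They are shown because the peaks lay outside the segments, in flanking DNA of different repeat content.
Trav5-4 peak, chr14:53699550-53699849: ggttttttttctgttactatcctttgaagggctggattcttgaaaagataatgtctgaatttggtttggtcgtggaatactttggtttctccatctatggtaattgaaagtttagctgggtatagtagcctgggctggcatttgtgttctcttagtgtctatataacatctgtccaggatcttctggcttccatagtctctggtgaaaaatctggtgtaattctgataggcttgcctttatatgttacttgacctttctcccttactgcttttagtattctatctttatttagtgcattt
Trbv28 peak, chr6:41264100-41264399: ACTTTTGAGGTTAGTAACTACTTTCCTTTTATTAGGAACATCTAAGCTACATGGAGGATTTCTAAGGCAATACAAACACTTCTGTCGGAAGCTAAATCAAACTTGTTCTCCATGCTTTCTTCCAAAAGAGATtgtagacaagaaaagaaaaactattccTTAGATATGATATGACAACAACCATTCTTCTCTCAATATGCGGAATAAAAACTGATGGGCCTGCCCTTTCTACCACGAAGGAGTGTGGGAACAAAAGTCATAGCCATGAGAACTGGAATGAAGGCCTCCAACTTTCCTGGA
Trav7-3 peak, chr14:53439150-53439449: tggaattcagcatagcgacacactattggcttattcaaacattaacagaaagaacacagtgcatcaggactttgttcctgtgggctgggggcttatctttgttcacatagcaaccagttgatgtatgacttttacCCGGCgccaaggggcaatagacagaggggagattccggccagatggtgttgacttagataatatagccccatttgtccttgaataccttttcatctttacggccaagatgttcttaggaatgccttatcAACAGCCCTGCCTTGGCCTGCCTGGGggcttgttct
All 300 bases were masked at the Trav5-4 peak, 89.7% at the Trav7-3 peak and 9% at the Trbv28 peak. Over the whole peaks the masked share was 92.8%, 52.2% and 34.1%. Only reads with a mapping quality of at least 20 were kept in the study, which limits what can be counted over such repeats.

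H3K9me3 peaks were dense over Igh and Igk and sparse over Tra/Trd, while Trb had more peaks per length than the genome but a smaller covered share. The Igh V span, from the first to the last annotated segment with 5 kb added at each end, is 2447 kb long, and H3K9me3 peaks covered 27.6% of it. The Igk span of 3159 kb was covered to 35.6%. Peaks covered 6.81% of the Tra/Trd span, 11% of the Trb span and 8.07% of the Igl span, against 15.2% of the genome. Per 100 kb there were 19.1 peaks in Igh and 23.8 in Igk, compared with 6.47 in Tra/Trd, 9.16 in Trb and 7.79 over the genome. The Trg span held no peak, but it is only 10.6 kb long. A single annotated segment matched the symbol rule there, so it does not stand for the whole gamma locus. Peaks were called once on all ChIP libraries together, so this density belongs to both genotypes and no library was compared. The study kept only reads that passed a limit on mapping quality. The share of each span where reads could pass this limit was not tested. The low cover of Tra/Trd thus describes called peaks, and absence of the mark was not shown.

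**Figure D1:**
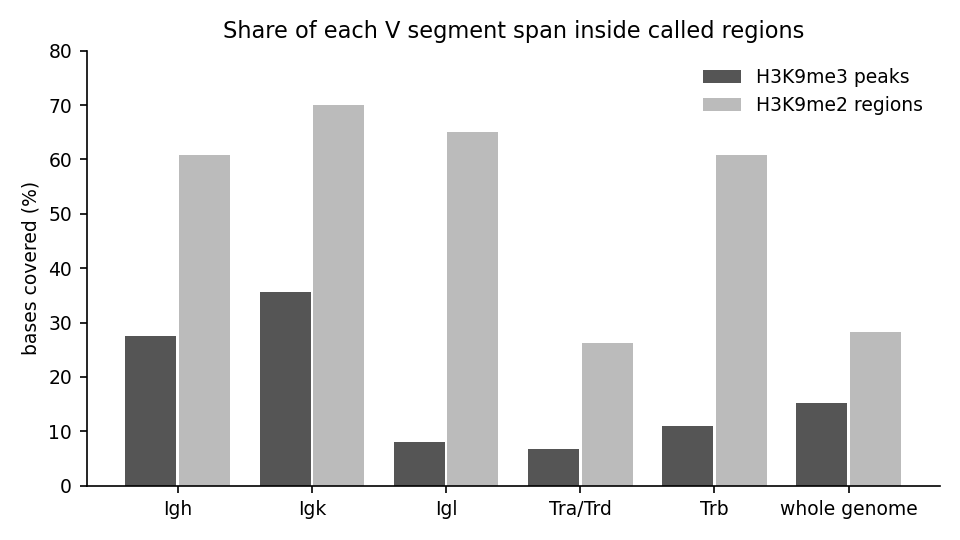
Percent of bases inside H3K9me3 peaks (dark bars) and H3K9me2 regions (light bars) for the V segment span of each locus and for the whole genome (y axis, percent of bases). Igh and Igk stand above the genome for both marks, and Tra/Trd stands below it for both, with 6.81% for H3K9me3 and 26.2% for H3K9me2.

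Most V segment peaks flanked a segment and did not cover it. Of the 760 peaks, 120 overlapped the named segment, 329 lay on its 5′ side and 311 on its 3′ side. In Igh, 56 of 185 annotated segments were overlapped by a peak, and in Igk 57 of 160. In Tra/Trd this was 3 of 134 segments, and in Trb 1 of 35. Over all loci, 18.9% of the 354 segments annotated as genes and 30.5% of the 164 annotated as pseudogenes were overlapped. The difference was present within Igh (32 of 115 genes, 24 of 70 pseudogenes) and within Igk (32 of 100 genes, 25 of 60 pseudogenes). In Tra/Trd 2 of 113 genes and 1 of 21 pseudogenes were overlapped, and in Trb 1 of 22 and 0 of 13. The pooled shares thus also carry the different mix of genes and pseudogenes in each locus. Segments of 1 cluster are related in sequence and were counted with the same libraries, so these shares are descriptions. The limit on mapping quality applies to them as well.

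The cover was uneven among V families, which group segments by sequence. The Ighv1 family, the largest of the heavy chain and mostly in the J-distal part, held 182 peaks at 71 of its 93 segments, and 33 of these segments were overlapped. The Ighv5 family, which lies near the D and J segments, had 5 peaks for 22 segments, and none of the 11 Ighv2 segments had a peak. In Igk, the Igkv4 family held 131 peaks, at all 33 of its segments, and 27 of them (81.8%) were overlapped. The Igkv8 family had 7 peaks for 12 segments with none overlapped. In Tra/Trd, the Trav6 and Trav7 families held 24 and 19 of the 67 peaks.

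Cover also changed with the distance from the J-proximal end of the V span, the end nearest to the J segments. The first 500 kb of Igh held 44 segments and were covered to 6.96%, whereas the third 500 kb (1000 to 1500 kb) held 48 segments and were covered to 45.4%. In Igk the first 500 kb were covered to 9.6% and the fourth (1500 to 2000 kb) to 58.1%. In Tra/Trd cover was 3.72% in the first 500 kb and 12.5% from 1500 kb to the end at 1731 kb. In all 3 loci the bin nearest to the J segments had the lowest cover. In Igk the first and the fourth bin held 26 segments each.

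Single V segment peaks were small. Their median width was 900 bp, against 1350 bp for all peaks, and their median level over the 6 libraries was 4.48 on the deposited log2 scale, against 5.01. The widest and highest peak covered Ighv1-26 (chr12:114784801-114799800, 15000 bp), a heavy chain V gene. Its log2 values were 8.95, 9.07 and 9.08 in the WT libraries and 9.06, 9.03 and 9.11 in KO. The widest Igk peak, over Igkv4-90 (chr6:68801251-68814150, 12900 bp), had values of 8.15, 8.29 and 8.23 in the WT libraries and 8.22, 8.26 and 8.24 in KO. The groups overlapped at both peaks, with log2 fold changes of 0.032 (SE 0.07) and 0.02 (SE 0.09). The highest Tra/Trd peak lay 4967 bp 5′ of Trav7-1 with a level of 6.71, and the highest Trb peak 2949 bp 5′ of Trbv31 with a level of 5.19.

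The inputs were used to compare the share of reads in these peaks between ChIP and chromatin without antibody. ChIP over input was the log2 ratio of the share of reads in a peak, with 1 read added and all reads in peaks as the total, so that a value of 0 means the same share as in the input of the same genotype. The median over the 760 peaks was -0.03 ± 0.01 for WT and 0.022 ± 0.04 for KO libraries (SD, n = 3). Over all peaks it was -0.062 ± 0.01 and -0.023 ± 0.024. V segment peaks thus held nearly equal shares of the reads in ChIP and input, between 0.256% and 0.265% of all reads in peaks in the 6 ChIP libraries and 0.266% and 0.265% in the inputs. The ratio is relative to the average peak and not to the genome outside peaks, which the deposited tables do not count.

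By locus, the Igh peaks had medians of -0.061 ± 0.013 in WT and -0.021 ± 0.028 in KO, and the Igk peaks of -0.057 ± 0.037 and 0.054 ± 0.047. In WT the Tra/Trd peaks held a larger share of the reads in peaks in ChIP than in input. Their medians were 0.31, 0.17 and 0.15 in the 3 WT libraries and lower in KO, with 0.041, 0.055 and 0.024. The WT and KO libraries did not overlap in this ratio. The inputs themselves differed at the same 67 peaks, with a median KO input 0.19 above the WT input on the log2 scale. Against the sum of both inputs the Tra/Trd medians were 0.38, 0.12 and 0.08 in WT and 0.22, 0.14 and 0.052 in KO, and the groups overlapped. The part of the input in this difference was not tested. The 11 Trb peaks had 0.045 ± 0.17 in WT and -0.077 ± 0.19 in KO.

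**Figure D2:**
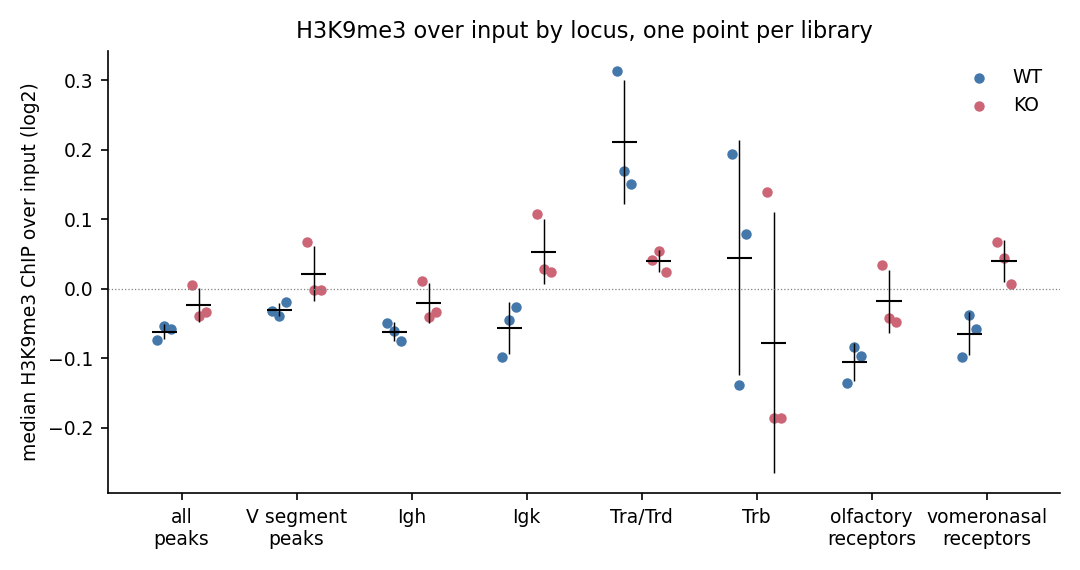
Median H3K9me3 ChIP over input (log2, y axis) over the peaks of each set, with 1 point per library (blue WT, red KO), bars for the mean and lines for the SD of 3 libraries, each against the input of its genotype. Tra/Trd is the set in which the 3 WT points (0.15 to 0.31) lie highest, while Igh and Igk lie near 0 with the olfactory and vomeronasal receptor peaks.

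A ratio of at least 2-fold over the WT input was reached by 17 V segment peaks (2.24%), against 3.21% of all peaks. With at least 10 reads in each input, 2 of the 17 remained, against 2138 of 6816 among all peaks. The 2 V segment peaks were 3341 bp 5′ of Ighv1-34 with a log2 ratio of 1.2, and 3365 bp 5′ of the pseudogene Igkv1-115 with 1.22. At both, the KO input held more reads than the WT input (24 against 12 and 33 against 10), and the KO ratios were 0.075 and -0.8. A pair of further peaks stood out with fewer input reads and were chosen after their values were seen. They lay 3′ of Trav4-4-dv10, were masked as repeats to 99.4% and 99.5%, and had log2 ratios of 2.19 and 2.59 in WT and 1.31 and 1.78 in KO. Their WT reads were 66, 40 and 62 and 53, 35 and 43, against 9 and 5 reads in the WT input. In KO they held 28, 55 and 43 and 38, 33 and 30 reads, with 14 and 8 in the input, and neither was called (log2 fold changes -0.25 and -0.17). Input reads were under 10 in at least 1 input for 22.4% of the V segment peaks and for 12% of all peaks. The lowest ratios among peaks with at least 10 input reads were -0.88 in Igh (Ighv1-55), -0.86 in Igk (Igkv1-108), -0.65 in Tra/Trd (a second Trav7-3 peak) and -0.57 in Trb (Trbv30), and the highest in Trb was 0.48 (Trbv24).

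The main comparison asked whether V segment peaks lost or gained H3K9me3 when Smarcad1 was deleted. Of the 760 peaks, 3 were lower in KO and 0 were higher (limma on the deposited log2 values, Benjamini-Hochberg adjusted p under 0.05 over all 212313 peaks). Among all peaks 2.46% were lower and 0.252% were higher. V segment peaks have lower levels than most, and among all peaks with a mean level between their lower and upper quartiles (3.91 to 5.23) 1.46% were lower. The 3 lower peaks were at T cell receptor segments, 2 in Tra/Trd and 1 in Trb. None of the 682 Igh and Igk peaks was called. At an unadjusted limma p under 0.05 there were 35 V segment peaks, against 10.8% of all peaks. Of these, 12 were lower (1.58%, against 6.75% of all peaks) and 23 were higher (3.03%, against 4.07%), so both shares were below those of all peaks. DESeq2 on read counts called 1 lower and 0 higher, and edgeR 3 lower and 0 higher. Over all 212313 peaks DESeq2 called 2273 lower and 125 higher, and edgeR 5870 lower and 560 higher.

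The smallest p belonged to a peak 2807 bp 5′ of Trav5-4, an alpha chain V gene (chr14:53698201-53701200). Its log2 values were 6.94, 6.58 and 6.83 in WT and 5.97, 6.06 and 6.14 in KO. All KO values lay below all WT values. The difference was -0.73 on the log2 scale (limma adjusted p = 0.000401, SE 0.14). The recovered reads were 137, 92 and 129 in WT and 44, 78 and 71 in KO, with 69 in the WT input and 56 in the KO input. The ratio to input was 0.47 for WT and -0.0049 for KO (log2). With each library left out in turn the limma adjusted p was at most 0.0131, and the call was lost with limma without the trend of the spread on the level (adjusted p = 0.144).

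The peak 1887 bp 5′ of Trbv28 (chr6:41263501-41265000), a pseudogene of the beta locus, had log2 values of 5.5, 5.41 and 5.63 in the WT libraries and 4.74, 4.69 and 4.35 in KO. The groups did not overlap and differed by -0.92 on the log2 scale (limma adjusted p = 0.005, SE 0.21). Its reads were 50, 41 and 56 in WT and 19, 30 and 20 in KO, and the inputs differed the same way, with 33 reads in the WT input and 19 in the KO input. The ratio to input was 0.25 for WT and 0.074 for KO. The call was lost without WT replicate 3 (limma adjusted p = 0.0622), with limma without the trend (adjusted p = 0.0888) and with DESeq2 on read counts (adjusted p = 0.0845).

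The peak 3049 bp 5′ of Trav7-3 (chr14:53438401-53440200), an alpha chain V gene, had log2 values of 6.1, 5.93 and 6.01 in WT and 5.51, 5.55 and 5.14 in KO. These also did not overlap, and the difference was -0.62 (limma adjusted p = 0.0323, SE 0.17). Reads were 76, 59 and 73 in WT and 32, 55 and 35 in KO, with 34 and 35 in the inputs. The ratio to input was 0.71 for WT, the highest in Tra/Trd among peaks with at least 10 reads in each input, and 0.01 for KO. This call was the least stable. It was lost without WT replicate 1 (limma adjusted p = 0.171), WT replicate 2 (0.0687), WT replicate 3 (0.121) or KO replicate 3 (0.233), with limma without the trend (0.236) and with DESeq2 (0.315), and it did not pass a threshold of 0.01. A second peak at the same segment, at 1549 bp, had a log2 fold change of 0.39 (SE 0.33) and overlapping groups.

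**Figure D3:**
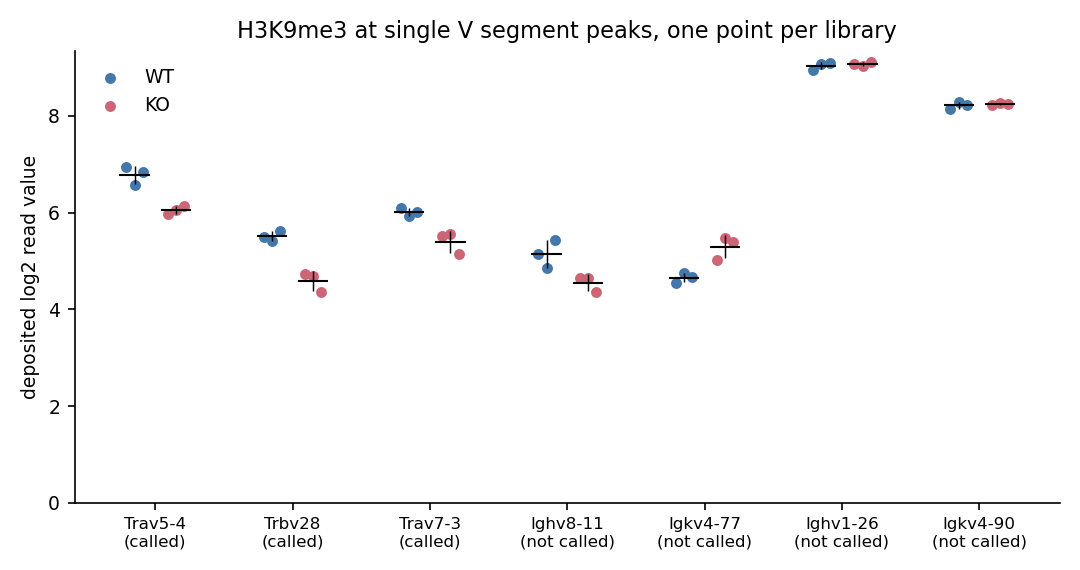
Deposited log2 read values (y axis) of single V segment peaks, with 1 point per library (blue WT, red KO), bars for the mean and lines for the SD of 3 libraries. The KO points lie below the WT points at the 3 called peaks and at Ighv8-11, above them at Igkv4-77, and among them at the wide peaks over Ighv1-26 and Igkv4-90.

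Igh and Igk had peaks with separated groups that did not pass the test. In Igh the smallest p belonged to the peak over Ighv8-11 (chr12:115566601-115567950), with 5.14, 4.86 and 5.43 in WT and 4.66, 4.64 and 4.35 in KO. KO was lower by a log2 difference of -0.59 that did not pass (limma adjusted p = 0.237, SE 0.23). In Igk it belonged to the peak 804 bp 3′ of the pseudogene Igkv4-77 (chr6:69108601-69110100), with 4.55, 4.75 and 4.66 in WT and 5.02, 5.48 and 5.39 in KO. Here the difference was 0.64 (limma adjusted p = 0.129, SE 0.22).

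Over all V segment peaks, all 3 KO values lay below all 3 WT values in 33 peaks (4.34%) and above them in 45 (5.92%). The shares over all peaks were 8.21% and 7.3%. In Igk, 12 peaks (3.08%) lay below and 30 (7.71%) above, and in Igh 13 and 12. In Tra/Trd, 6 (8.96%) lay below and 3 above, and in Trb 2 below and 0 above. Among all peaks with a mean level between the quartiles of the V segment peaks the shares were 7.54% and 6.6%, with a median SE of 0.25 on the log2 scale, against 0.27 for V segment peaks and 0.22 for all peaks. Both shares of V segment peaks were thus below those of peaks of like level, a difference that was not tested.

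The median change at V segment peaks was close to that of all peaks. The median log2 fold change was 0.032 over the V segment peaks and 0.028 over all peaks, with quartiles of -0.14 and 0.19 and of -0.15 and 0.18. It was 0.026 in Igh, 0.053 in Igk, -0.051 in Tra/Trd and -0.11 in Trb. Fold changes were above 0 in 53.6% of Igh and 59.4% of Igk peaks, in 38.8% of Tra/Trd and 36.4% of Trb peaks, and in 54.7% of all peaks. The smallest and largest values were -0.92 and 1.1. Peaks on the 5′ side had a median of 0.042, those on the 3′ side 0.032 and those over the segment 0.014, and the 3 called peaks were on the 5′ side. Peaks at segments annotated as genes and as pseudogenes had medians of 0.031 and 0.037.

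**Figure D4:**
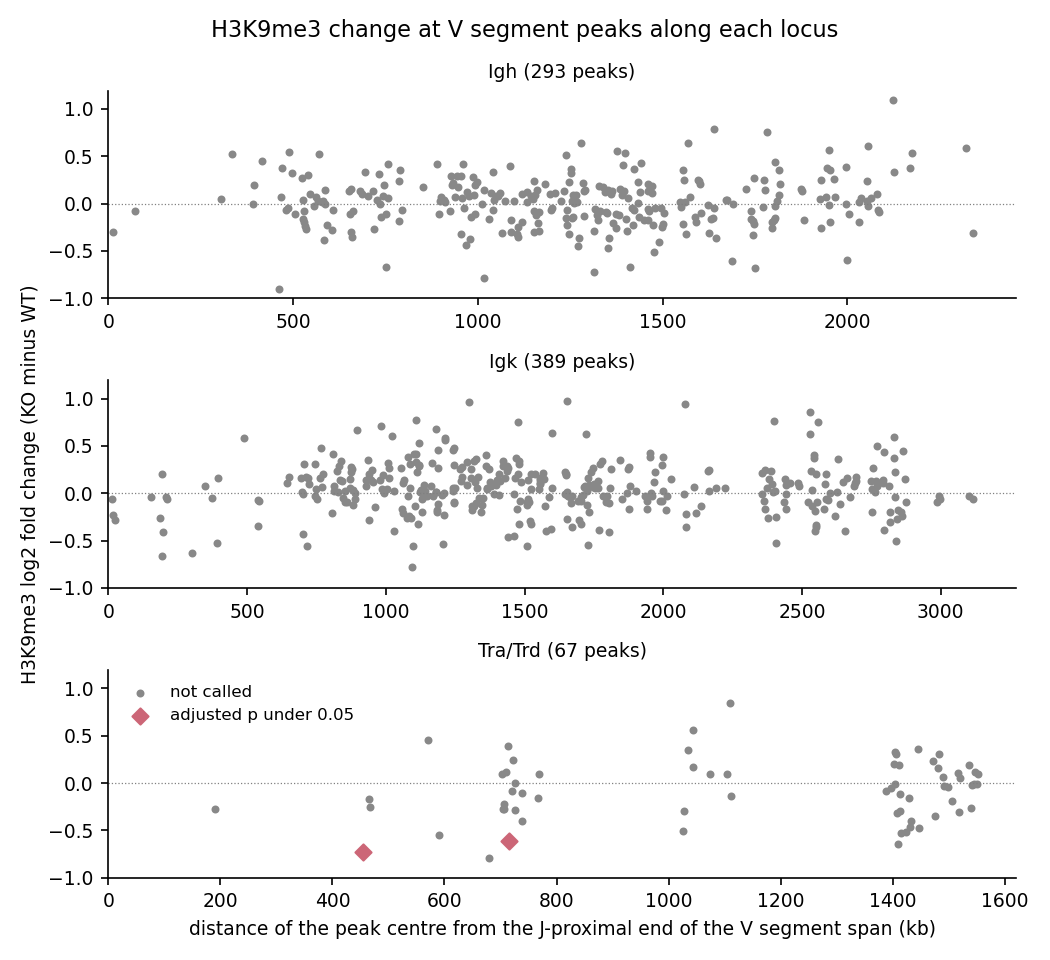
Log2 fold change of H3K9me3 (KO minus WT, y axis) at V segment peaks against the distance of the peak centre from the J-proximal end of the V span (kb, x axis), for Igh, Igk and Tra/Trd. Most points lie within 0.5 of 0 along all 3 loci, and the 2 red diamonds in Tra/Trd are the peaks near Trav5-4 and Trav7-3.

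Along Igh the median fold change per 500 kb lay between -0.0018 and 0.06. Along Igk it was 0.11 from 500 to 1000 kb and 0.088 from 1000 to 1500 kb, and it lay between -0.061 and 0.037 in the other bins. From 500 to 1500 kb, 7 of 61 and 13 of 118 peaks lay above WT, and 2 and 3 lay below. Over all peaks 7.3% lay above and 8.21% below. Along Tra/Trd the medians were -0.26 over the 4 peaks of the first 500 kb, -0.13 over the next 18, -0.039 over 34 and -0.013 over the last 11. The bins share the same 6 libraries and were not tested.

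Olfactory and vomeronasal receptor genes, other large tandem families, were read from the same fit for comparison. The 2665 olfactory receptor peaks had 29 lower (1.09%) and 4 higher, and a median fold change of 0.022. Their ChIP over input in WT was -0.11 ± 0.027 (SD, n = 3). The 847 vomeronasal receptor peaks had 3 lower (0.354%) and 0 higher, a median fold change of 0.015 and a ratio of -0.064 ± 0.031. For the V segments, 3 lower were 0.395%, and the ratio was -0.03 ± 0.01. These counts were not tested against each other.

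V segment peaks had a median masked share of 45.9%, against 35.2% for all peaks. Olfactory receptor peaks had 40.9% and vomeronasal receptor peaks 47%, so a share above that of all peaks was not particular to V segments. By V locus the shares differed. The share was 67.8% in Tra/Trd, 44% in Igk, 41.3% in Igh and 34.1% in Trb. Peaks that overlapped a segment had 16%, and those beside it 53.3% (5′) and 53.8% (3′). Median GC content was 40.3%, with 44.6% in Tra/Trd and 39.4% in Igk.

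The V spans held other peaks besides these. In Igh, 115 peaks had no gene within 5 kb and 59 were assigned to other genes, and in Igk these were 282 and 80. Including them, 5 of the 1398 peaks in the spans were lower and 2 were higher, where 2.46% and 0.252% of all peaks were. The higher ones were near the predicted gene Gm9238 in Igh (log2 fold change 0.81, limma adjusted p = 0.0224, SE 0.22) and in a part of Igk without a gene (0.94, SE 0.26, adjusted p = 0.0267). The 2 lower ones outside the V segment set were in the Igl span, near A530030E21Rik (-0.63, SE 0.13, adjusted p = 0.000836) and near Iglc2, a lambda constant segment (-0.45, SE 0.11, adjusted p = 0.0118). The Iglc2 peak had log2 values of 7.53, 7.31 and 7.34 in WT and 7.01, 6.98 and 6.86 in KO, and was the 1 called among 4 peaks at D, J and C segments (25%, against 2.46% of all peaks called lower). The 2 peaks at Trgj2 and the peak near Ighg2b were not called.

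H3K9me2 covered more of the same spans. Regions covered 60.8% of the Igh span, 70% of Igk, 65% of Igl, 60.8% of Trb and 26.2% of Tra/Trd, against 28.3% of the genome. They held 283 of the 518 V segments (54.6%). In Igh these were 115 of 185 segments, in Igk 123 of 160, in Trb 18 of 35 and in Tra/Trd 25 of 134. Of the 760 H3K9me3 peaks, 585 (77%) overlapped an H3K9me2 region, as did 68.2% of all H3K9me3 peaks. In Tra/Trd, where called peaks and regions were sparse, this was 57 of 67 peaks.

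None of the 181 H3K9me2 regions listed with a V segment was called in KO (edgeR quasi-likelihood test, 0 lower and 0 higher at an adjusted p under 0.05, each adjusted p at least 0.9999). Among all 47065 regions 1 was lower (0.00212%) and 0 were higher, and DESeq2 called none of the V segment regions. At an unadjusted p under 0.05 there were 9 V segment regions, against 3.12% of all regions. Of these 1 was lower (0.552%, against 1.52% of all regions) and 8 were higher (4.42%, against 1.6%). The median log2 fold change was 0.039 over the V segment regions and -0.0015 over all regions. It was above 0 in 119 of 181 regions (65.7%), against 49.3% of all regions. Over the 122 regions that overlapped a segment the median was 0.0423 with 72.1% above 0, and over the 59 beside one 0.0184 with 52.5%, and none was called in either group. V segment regions held 0.497%, 0.492% and 0.489% of the reads in regions in WT and 0.508%, 0.504% and 0.504% in KO, with 0.487% in the WT input and 0.482% in the KO input. Each KO share lay above each WT share. By locus, the median log2 fold changes were 0.0387 in Igh, 0.0395 in Igk and 0.0346 in Tra/Trd. They were 0.0232 over the 6 Trb regions, of which 3 were above 0, and -0.0343 in the 1 Igl region.

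The smallest H3K9me2 p in Igk belonged to the region over Igkv4-54 and 1874 bp from Igkv13-54-1 (chr6:69619351-69635700), with 11.9, 11.6 and 11.5 CPM (counts scaled to the reads in all regions) in the WT libraries and 13.5, 15.6 and 15.5 in KO. The log2 fold change was 0.33 (SE 0.09, edgeR adjusted p = 0.9999). In Igh it was the region over Ighv8-11 (chr12:115567201-115577850), with 8.11, 7.5 and 6.5 CPM in WT and 9.07, 8.8 and 10.2 in KO and a log2 fold change of 0.33 (SE 0.11). At Ighv8-11 the H3K9me3 values were lower in KO and the H3K9me2 values higher, and neither passed its test. In Tra/Trd it was a region 3541 bp from Trav4-3 (chr14:53602951-53606850), with 4.17, 4.54 and 4 CPM in WT and 2.28, 3.11 and 3.17 in KO and a log2 fold change of -0.59 (SE 0.17). The region with the most MACS peaks in Igk reached from Igkv14-134-1 to Igkv17-127 and held 9 segments. It changed by 0.0081 (SE 0.04), and the one in Igh, which held 7 segments from Ighv4-2 to Ighv9-1, changed by 0.039 (SE 0.045). The regions of the same kind over Iglv2, Trav1 and Trbv28 to Trbv30 changed by -0.034, -0.011 and 0.075, with SE between 0.046 and 0.05.

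Against input, the H3K9me2 regions listed with V segments had log2 medians of 0.042 ± 0.017 for WT and 0.12 ± 0.021 for KO libraries (SD, n = 3), and over all regions 0.0042 and 0.0077. The Tra/Trd regions had the highest, at 0.15 ± 0.09 in WT and 0.26 ± 0.049 in KO.

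Genes that act on these loci in lymphocytes were read from the same H3K9me3 fit. Of 16 recombination and end joining factors, 4 had a peak and 3 had a lower one. They were Polm, a polymerase that fills gaps during end joining (log2 fold change -1.79, limma adjusted p = 6.08e-14, SE 0.13), Prkdc, the DNA-dependent protein kinase (-1.14, SE 0.3, limma adjusted p = 0.0228), and Xrcc4, a partner of a DNA ligase (-0.82, SE 0.21, adjusted p = 0.0141). The fourth, Hmgb1, had no called peak, and Rag1 and Rag2 had no peak. Over the 16 peaks of this list 3 were lower (18.8%, against 2.46% of all peaks), and the median log2 fold change was -0.46, against 0.028 for all peaks. Of 13 regulators of B and T cells, 6 had a peak, and 1 of their 12 peaks was lower (8.33%), at Runx1 (-0.59, SE 0.17, limma adjusted p = 0.0418), with a median of -0.28.

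The labelled tissue was checked with 2 marker lists, as far as a repressive mark allows. Of 12 lymphocyte markers, Cd3e and Cd4 had 1 peak each (log2 fold change -0.73, adjusted p = 0.0673, and -0.49, adjusted p = 0.577, by limma), and the others had none. Of 10 crypt epithelium markers, 3 had peaks, and 2 of their 5 peaks were lower (40%, against 2.46% of all peaks) and 1 was higher (20%, against 0.252%). Lgr5 (-0.49, limma adjusted p = 0.00921) and Lyz1 (-0.52, limma adjusted p = 0.0108) had a lower one. The peak over Vil1, whose promoter drives the Cre, was higher by 6.69. WT ChIP libraries held 50, 46 and 47 of its reads, against 3479, 4731 and 4791 for KO. The inputs held 296 (WT) and 3288 (KO), so part of the change was present without antibody. How much of it belongs to the mark was not tested. The WT input, used for the H3K9me3 ratios of WT, held more reads here than any WT ChIP library. The reason was not tested. These tables give no RNA level, so the share of lymphocytes in the isolates, in which receptor loci may be rearranged, was not tested.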

How the data were processed

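H3K9me3 and H3K9me2 ChIP-seq libraries were analysed as deposited. In the study, reads were trimmed with Trim Galore 0.4.4, mapped to GRCm38 with Bowtie2 2.3.2, filtered on mapping quality, stripped of duplicates, and peaks were called once per mark with MACS on all ChIP libraries against both inputs. For H3K9me3, the authors gave each peak a log2 read count and matched the distributions of the 6 ChIP libraries, which removes differences of depth and any genome-wide shift. Inputs were left unmatched, on the log2 scale. For H3K9me2, the authors joined MACS peaks into regions and gave as signal the reads of a region averaged over its peaks. Multiplied by the number of peaks, this signal gave whole reads (largest distance 0.00114). A further table deposited by the authors held H3K9me2 read counts, used here only to check 3 peaks against the region sums, and columns of their own comparisons (fold changes and p-values) were not used, nor were 8 columns of standard deviations.

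H3K9me3 was tested with limma 3.58.1 (lmFit, eBayes with trend) and H3K9me2 with edgeR 4.0.16 (TMM, quasi-likelihood F test), both two-sided, with genotype as the only term and Benjamini-Hochberg adjustment over all features. H3K9me3 reads were recovered from the rank of each value among the distinct values of its library. They returned at least 99.8% of the deposited values within 0.002, and 3 V segment peaks had an extrapolated count. Reads in all peaks numbered 7059278 to 11834528 per H3K9me3 ChIP library and reads in all regions 18986927 to 39080740 per H3K9me2 ChIP library. Counting error only is covered by these numbers. No pair of libraries agreed within sampling noise. Functions were tested on simulated data. Segments, strands and classes came from GENCODE M21, and sequences and repeat masking from the RefSeq copy of GRCm38. All member symbols matched GENCODE by identifier.

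The members and the gene lists were chosen with earlier results of these data known. Peaks named were all those called, and in each locus those of smallest p, highest level, greatest width, and highest and lowest ratio to input with at least 10 reads in each input. H3K9me2 regions named were those of smallest p and most MACS peaks in each locus. Listed genes with a called peak were named. R 4.3.3, DESeq2 1.42.0 and Python 3.11.15 were used. Alternatives were other tests, filters, a pseudocount, thresholds, inputs, leaving out each library, and the replicate number as a block. The bases that follow the other named segments are not reported here.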

Additional observations from a re-analysis of the deposited data

How the results depend on the processing

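The count of lower H3K9me3 peaks rests on few calls. Of 760 V segment peaks, 3 were lower, and this stayed at 3 with a filter at a mean log2 of 4, a pseudocount of 8 and edgeR on recovered counts, and was 2 at an adjusted p under 0.01. Over the whole table these fits called 5353, 5488, 5870 and 3363 lower, against 5226 in the main fit. The V segment count was 0 with limma without the trend, a fit that called 87 lower peaks over the whole table. It was 1 with DESeq2 on recovered counts, which called 2273, and 0 among the 120 peaks that overlap a segment. With each library left out it ranged from 1 to 3 (1 without WT replicate 3), and the count of higher peaks from 0 to 1. Over the whole table the leave-one-out fits called 3242 to 4863 lower and 352 to 535 higher. The 1 higher peak, without KO replicate 1, was over Igkv12-44, named after its value was seen. The cause of these differences was not tested.

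The median log2 fold change of 0.0319 was 0.0078 with edgeR, 0.013 with DESeq2 and 0.0142 over the overlapping peaks alone, and ranged from 0.0145 to 0.0467 with each library left out. The H3K9me2 counts were 0 lower and 0 higher in every alternative run, leave-one-out included, and also over the regions that overlap a segment, an alternative chosen after seeing the data (median 0.0423). The median of 0.0387 ranged from 0.0281 to 0.0507 with each library left out. The H3K9me3 ratio over input was -0.0856 (WT) and -0.0325 (KO) for peaks with at least 10 reads in each input, and -0.004 in WT against the sum of both inputs. With each library left out it ranged from -0.0352 to -0.0257 in WT and from -0.0013 to 0.033 in KO.

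Same-numbered WT and KO libraries deviated with correlations of -0.015, 0.009 and -0.014 for H3K9me3 and 0.18, 0.016 and 0.078 for H3K9me2, so the numbers were not taken as pairs. With the replicate block 3 V segment peaks were lower and 0 higher, no call of a named V segment peak or region changed, and over all H3K9me2 regions the count went from 1 to 15 lower and from 0 to 2 higher.

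Some changes near 0, none of them called, had the other sign under an alternative. The Ighv1-26 peak was at -0.018 with edgeR and -0.0133 with DESeq2, and the Igkv4-90 peak at -0.0256 and -0.0224. With each library left out, the H3K9me3 change ranged from -0.0087 to 0.0562 at Ighv1-26, from -0.4934 to 0.2438 at Ighv1-55, from -0.0172 to 0.0536 at Igkv4-90, from -0.1293 to 0.3112 at Trbv31 and from -0.0291 to 0.1601 at Trbv30, and the H3K9me2 change from -0.0802 to 0.0022 at Iglv2 and from -0.032 to 0.0259 at Trav1. With a median of 17 to 28 reads per peak, the median SE of a V segment peak was 0.27, and it was smaller at wide peaks (0.07 at Ighv1-26).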
